A study of Bos taurus with 10 samples.

Results

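The genes of cholesterol synthesis, uptake and storage were examined in cow embryos. The set was given by 29 gene symbols, which name 27 genes because 2 of them carry an older and a newer symbol (SC4MOL is MSMO1 and SC5DL is SC5D), and the rule used no measured values. The array held 62 probes for these genes among 43653 probes in all, which carry 25325 distinct gene names. RNA came from bovine embryos flushed from the uterus on day 7, after superovulation and insemination of the donor cows. The groups were vehicle (DMSO per the labels, n = 2), senktide at 30 nmol/min (n = 4) and senktide at 300 nmol/min (n = 4), given to the donors intravenously for 2 h at 48 h after the superovulation treatment began. Senktide is a peptide that activates the neurokinin 3 receptor, and the stated aim was to learn how the infusion bears on the quality and developmental stage of the embryos. The infusion preceded insemination, which took place at 108 and 120 h. The labels do not say how many embryos made up a sample, nor whether different cows gave the samples of 1 group. The p-values therefore rest on a spread between samples that may be technical. The extraction text of the labels speaks of endometrium, while titles and tissue fields name embryos.

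Cholesterol is built from acetyl-CoA in the mevalonate pathway: ACAT2 and HMGCS1 join acetyl units, MVK, PMVK and MVD turn mevalonate into an isoprenoid unit, IDI1, FDPS and GGPS1 lengthen it, and FDFT1, SQLE and LSS make and fold the first sterol. CYP51A1, TM7SF2, MSMO1, NSDHL, HSD17B7, EBP, SC5D and DHCR7 then trim this sterol to cholesterol. Cells also take cholesterol up in lipoproteins. NPC1 and NPC2 carry it out of the lysosome, STARD4 moves it between membranes and SOAT1 stores it as esters. When membranes are poor in sterol, SCAP escorts the transcription factor SREBP-2 (gene SREBF2) to the Golgi, where it is released to switch these genes on, and INSIG1 and INSIG2 hold that complex back. In an early embryo the products supply new membrane for dividing cells and the lipid anchors of signalling proteins.

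Each gene was measured by probes of about 60 bases, and the stretch of transcript that a probe reads differed within a gene. The sequences below are shown because they belong to the most downstream or only probe of each gene, at which these 4 genes were detected. They are 30-base stretches of the probes, 5′ to 3′, with the polyadenylation hexamer AATAAA in capitals. The probes lie on the HGSC Btau_3.1 build at chr29:50153776-50153835 (minus strand, DHCR7), chr16:58312947-58313006 (plus, SOAT1), chr10:88246169-88246228 (minus, NPC2) and chr20:33482077-33482136 (plus, HMGCS1).
DHCR7: ggacttctgtgtcacAATAAAgcaagtctc
SOAT1: ggaatgtatgctAATAAAccatgcaattgg
NPC2: catgtctctttgAATAAAcaaacacttggc
HMGCS1: gtgggtaactttgAATAAAgttttagagaa
A probe is called detected on an array where the scanner software flagged its signal as well above background. The DHCR7 probe was detected on 9 of the 10 arrays, the SOAT1 probe on 10, the NPC2 probe on 7 and the HMGCS1 probe on 4. The hexamer AATAAA or its variant ATTAAA, searched on the probe's own strand, stood in 11 of the 62 probes (17.7%), against 12.7% of all probes on the array. Of the 11 probes with a hexamer, 63.6% could be tested, against 29.4% of the other 51. Over the whole array the shares were 38.0% and 17.9%. The stretches above were chosen among detected probes. The most downstream probes of LSS (AATAAA) and CYP51A1 (ATTAAA) were detected on 0 arrays, as was an upstream ACAT2 probe with AATAAA. A hexamer match is a description of the letters and does not show that a transcript ends there.

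The probes farther upstream were mostly at background. In 9 probes the genome positions span a gap longer than the probe and the sequence holds an open reading frame. Of these 9 probes, 0 could be tested. They include the only probe of TM7SF2, which is not an upstream one. Most cholesterol gene probes without such a gap also hold an open reading frame, and most of them could not be tested either. No share over the whole array is given for gap-spanning probes, and whether the gap matters was not tested. The MVK probe of this kind (chr17:66907746-66911728, minus strand) and that of SOAT1 (chr16:58299751-58300565, plus strand) are shown whole, because the same genes were clearly measured by their downstream probes.
MVK: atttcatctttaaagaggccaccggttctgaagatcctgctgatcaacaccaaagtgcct
SOAT1: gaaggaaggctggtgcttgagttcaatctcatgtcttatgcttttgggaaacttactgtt
Both were detected on 0 of the 10 arrays, while the downstream probes of MVK and SOAT1 were so on 9 and 10. Among the 23 genes with at least 2 probes, the most downstream probe could be tested in 13 (56.5%), and of the 35 other probes 6 could (17.1%). The same shares over all genes named by accession were 43.3% and 18.8%. In 12 of the 14 genes with a tested probe (85.7%) no probe was detected on more arrays than the most downstream one, and over all genes the share was 82.5%. The exceptions were GGPS1 and NSDHL. Among the cholesterol genes and on the array as a whole, downstream probes were thus detected more often than the others.

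**Figure D1:**
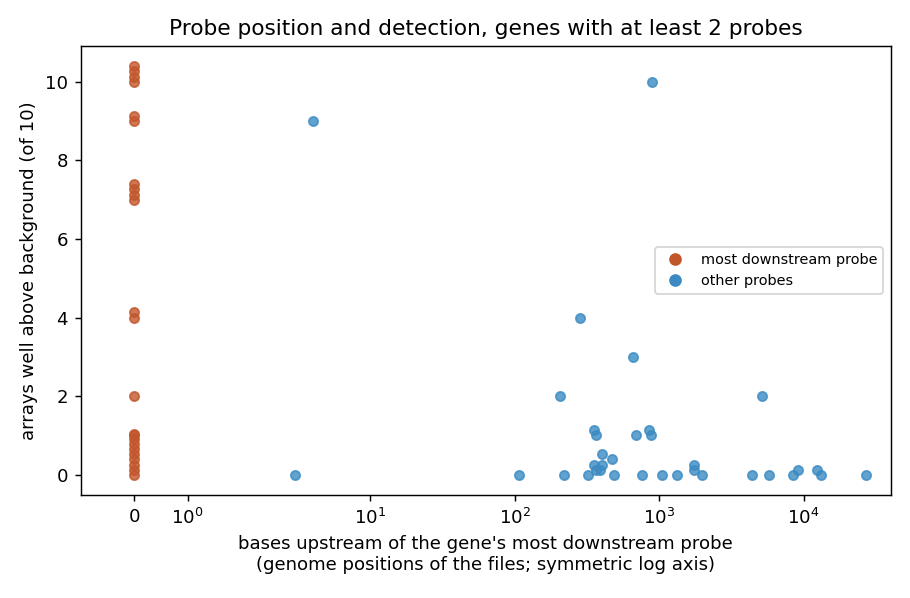
Number of arrays (of 10) on which each probe was detected, against its distance in bases from the gene's most downstream probe, for the 23 genes with at least 2 probes (symmetric log axis; points at the same place are stacked upwards). Most downstream probes (orange) reach up to 10 arrays, while of the other probes (blue) only 1 of SREBF2 and 1 of GGPS1 exceed 4 arrays.

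GGPS1, which makes the geranylgeranyl unit used to anchor proteins in membranes, has 2 nearly identical probes on the plus strand. The first 30 bases of each are shown with the letters that both probes hold in capitals, at chr28:6559899-6559957 and chr28:6559894-6559953.
GGPS1 downstream: AACTCTGCCTCACATGTTCTGTGGATTCTG
GGPS1 upstream: tggccAACTCTGCCTCACATGTTCTGTGGA
The probes share 55 bases and are offset by 5. The upstream one was detected on 9 arrays and the downstream one on 2. The fitted difference between 300 nmol/min and vehicle was −0.24 ± 0.29 on the log2 scale for the upstream probe (SE, adjusted p = 0.713 in limma). The downstream probe averaged −4.23 at 300 nmol/min and −3.07 in vehicle (adjusted p = 0.322), but it was detected on 0 of the 4 arrays with 300 nmol/min and on 0 of the 2 vehicle arrays, so no fold change is given for it.

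Of the 27 genes, 17 had a probe that 2 or more arrays detected, which was tested. These were ACAT2, HMGCS1, MVK, FDPS, GGPS1, FDFT1, SQLE, MSMO1, NSDHL, EBP, SC5D, DHCR7, NPC1, NPC2, SOAT1, SREBF2 and SCAP. The other 10 were not tested. IDI1 was detected on 1 array, a 30 nmol/min sample, and 9 genes were so on 0 arrays: PMVK, MVD, LSS, CYP51A1, TM7SF2, HSD17B7, STARD4, INSIG1 and INSIG2. Of the 62 probes, 22 were tested, 6 were detected on 1 array and 34 on 0. NPC1, SCAP, SOAT1 and SREBF2 were detected on all 10 arrays. DHCR7, GGPS1, MVK and MSMO1 were so on 9, and the missing array was vehicle replicate 1 for each of them.

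The arrays differed in how much they detected. Between 7.17% and 19.6% of spots were detected, with 7.17% and 9.44% in vehicle, 8.77% to 19.6% at 30 nmol/min and 10.47% to 19.6% at 300 nmol/min, and 0 spots were saturated. The arrays lay on 3 slides. On slides 1 and 2 there was 1 array per group, while slide 3 carried 2 arrays of each dose and no vehicle array. The 4 arrays of slide 3 had the highest shares, 18.3% to 19.6%. Of the 9 embryo markers, KRT8, KRT18, GATA2, GATA3 and TFAP2C of the trophectoderm and SOX2 of the inner cell mass were detected on all 10 arrays, POU5F1 on 4 and CDX2 and NANOG on 0. Of 18 markers of blood, leukocytes, stroma and uterine or oviduct epithelium, LYZ of leukocytes was detected on all 10 arrays, CLU of the epithelium on 7, and PTPRC on 5, HBA and ITGB2 on 4, COL1A2 on 3, DCN on 2 and MUC1 on 1. The other 10, which were HBB, CD14, CD68, S100A8, S100A9, COL1A1, COL3A1, VIM, OVGP1 and PAEP, were detected on 0 arrays. In embryos, as in any bulk sample, fewer cells of a type and less RNA per cell cannot be told apart.

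The count of detected cholesterol genes moved with the array. Of the 17 measured genes, 5 and 9 were detected on the 2 vehicle arrays, 12, 10, 15 and 16 with 30 nmol/min, and 11, 13, 16 and 16 with 300 nmol/min. Within slide 1 the counts were 5, 12 and 11 from vehicle to the high dose, and within slide 2 they were 9, 10 and 13. Of all 8935 tested probes, the shares detected on the same arrays were 33.0%, 55.4% and 50.4% on slide 1 and 45.0%, 41.3% and 59.8% on slide 2. The filter shapes these counts, because 8 of the 10 arrays were senktide arrays: EBP, FDFT1, FDPS, HMGCS1, NPC2, NSDHL and SQLE were detected on 0 vehicle arrays and passed it only through senktide arrays, as did 52.1% of all tested probes. The share of all probes detected was also higher on the slide 3 arrays, and among the others 30 nmol/min replicate 2, at 8.76% of all probes and 10 cholesterol genes, lay below vehicle replicate 2 in that share (9.41%) but not in that count. The part of array sensitivity in these counts was not tested.

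**Figure D2:**
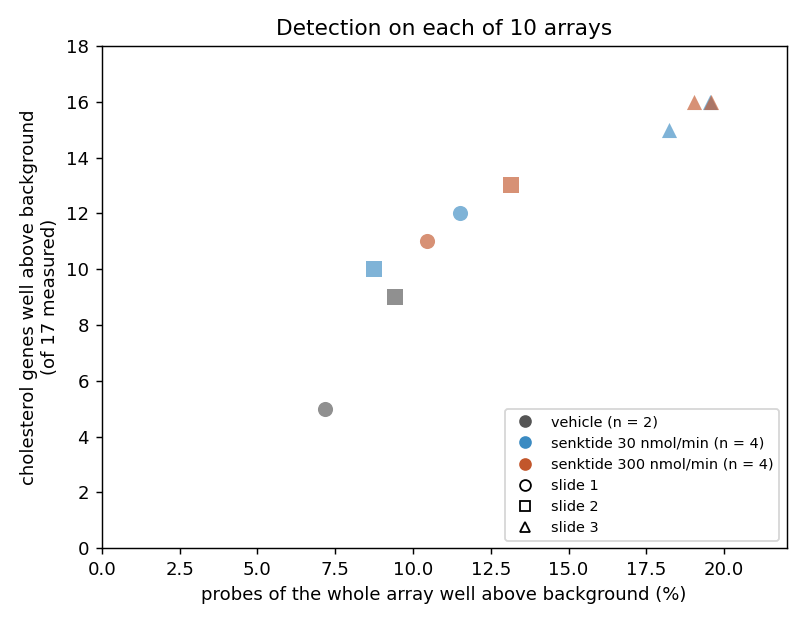
Number of measured cholesterol genes detected on each array (of 17) against the share of all probes on that array detected (%), by group (colour) and slide (symbol). The count lies between 5 genes on vehicle replicate 1 and 16 genes on 3 arrays of slide 3.

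The values below are log2 processed signals relative to each array's scale, which is the 75th percentile of the 2491 probes that every array detected. Such values compare arrays for 1 probe and do not compare genes with each other. Differences were tested in limma on the 8935 probes detected by 2 or more arrays, with Benjamini-Hochberg adjustment over all of them and a threshold of 0.05. The values of all 17 genes on each array are in the plot by group.

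**Figure D3:**
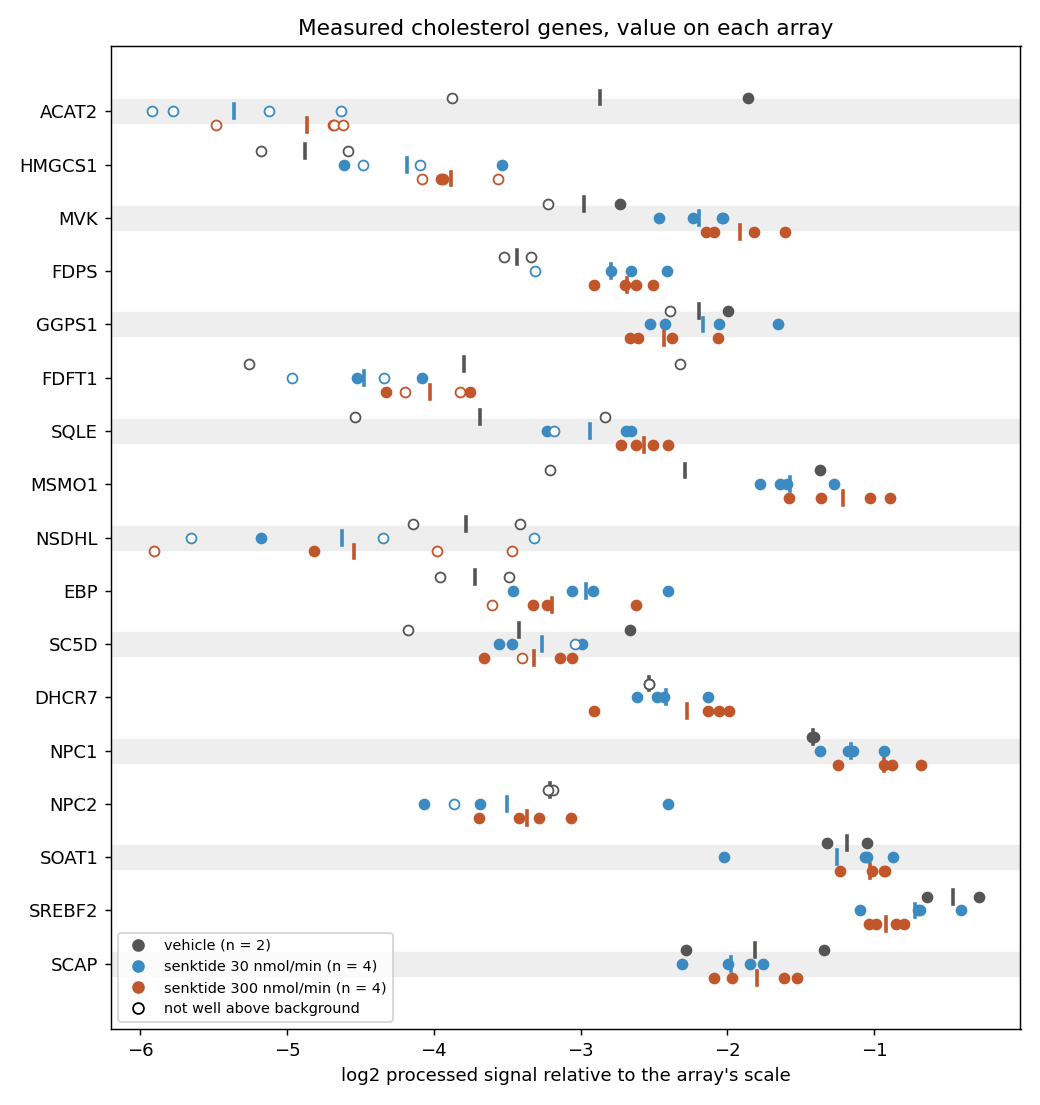
Log2 processed signal relative to the array's scale for the 17 measured genes, with vehicle (grey, n = 2), senktide 30 nmol/min (blue, n = 4) and senktide 300 nmol/min (orange, n = 4); each point is 1 array, open points were not detected and short lines mark group means. For MVK, FDPS and NPC1 all points of both doses lie to the right of both vehicle points, and for ACAT2 they lie to the left.

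No cholesterol gene passed the threshold in any comparison. At 300 nmol/min against vehicle 0 of the 17 genes were called at an adjusted p under 0.05, where 0.0112% of all probes were called, and the smallest adjusted p in limma was 0.175 (MVK). At an unadjusted p under 0.05, 6 genes had higher values at 300 nmol/min (HMGCS1, MVK, FDPS, SQLE, MSMO1 and NPC1), against 5.89% of all probes, and 1 had lower values (ACAT2), against 7.95%. For 5 genes all 4 arrays at 300 nmol/min lay above both vehicle arrays (the same genes without MSMO1), where 9.26% of all probes did so. HMGCS1, FDPS and SQLE passed the filter only through senktide arrays, as did 68.6% of all probes that were higher at an unadjusted p under 0.05, so their place in these counts is no support for a difference. For ACAT2 and SREBF2 the arrays at 300 nmol/min lay below both vehicle arrays, where 16.3% of all probes did. Over the 17 genes 11 differences were positive, with a median of 0.16, against a median of −0.11 and 40.7% positive over all probes tested. That count depended on the scale: it was 16 with either scale over all probes and with the deposited series matrix values, 15 with quantile normalization, 13 with normexp (a model-based background correction) followed by quantile normalization, and 8 with values raised to the lowest detected signal.

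At 30 nmol/min against vehicle 0 genes were called (0% of all probes), with a smallest adjusted p of 0.206 in limma (ACAT2). The unadjusted p was under 0.05 for 2 genes with higher values, MVK and FDPS (4.94% of all probes), and for 1 with lower values, ACAT2 (6.32%). All 4 arrays at 30 nmol/min lay above both vehicle arrays for MVK, FDPS, EBP and NPC1 (7.63% of all probes) and below them for ACAT2 (11.9%). Of the 17 differences 10 were positive (16 with a scale over all probes and 6 with the raised values), and the median was 0.12, against −0.11 over all probes. FDPS and EBP passed the filter only through senktide arrays, so their place in these counts is no support for a difference. MVK, detected on 1 vehicle array, also needed senktide arrays to pass the filter, and the same holds for it. The comparisons of the 2 doses with vehicle share the same 2 vehicle arrays, so their values are given side by side and not counted as separate evidence. With both doses together against vehicle, 0 of 17 genes were called (0.0336% of all probes), and the smallest adjusted p was 0.155 in limma. There 5 genes had higher values at an unadjusted p under 0.05, namely FDPS, HMGCS1, MSMO1, MVK and SQLE (6.09% of all probes). Lower values were found for 1 gene, ACAT2 (8.76%). Here too FDPS, HMGCS1 and SQLE passed the filter only through senktide arrays, and their place in the count is no support for a difference. MVK and MSMO1 also needed senktide arrays to pass the filter, and the same holds for them.

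The calls depended on the vehicle arrays. Without vehicle replicate 2, MSMO1 and SQLE passed the threshold at 300 nmol/min (smallest adjusted p = 0.0395 in limma, 50 probes called on the whole array), and ACAT2 passed it at 30 nmol/min (adjusted p = 0.0425). None of the 3 was called without vehicle replicate 1, where 32 probes of the array were called at 300 nmol/min and 34 at 30 nmol/min. In those fits the vehicle group is 1 array, which is assumed to vary like the others. The choice of scale also sets the sign of small differences: with the 75th percentile of the whole array as the scale, the median over all probes was 1.06 at 300 nmol/min, and that over the cholesterol genes 1.33, so only the difference from the median of all probes can be compared between scales. Under that scale the differences of FDFT1, GGPS1, NPC2, NSDHL and SREBF2 at 300 nmol/min, and of FDFT1, NPC2, NSDHL, SCAP, SOAT1 and SREBF2 at 30 nmol/min, became positive, and at both doses ACAT2 alone stayed negative.

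The first steps of the pathway were seen at low signal. HMGCS1, which makes the HMG-CoA that feeds the mevalonate pathway, had values of −4.58 and −5.17 in vehicle, −4.09, −4.48, −3.53 and −4.61 with 30 nmol/min and −4.08, −3.57, −3.95 and −3.94 with 300 nmol/min. Only replicates 3 and 4 of each dose were detected. The 4 values at the high dose lay above both vehicle values, but with the vehicle arrays at background no fold change can be given (adjusted p = 0.269 at 300 nmol/min and 0.46 at 30 nmol/min in limma). ACAT2, the cytosolic thiolase that joins 2 acetyl-CoA, had values of −1.86 and −3.88 in vehicle, −5.12, −4.64, −5.92 and −5.78 with 30 nmol/min and −4.68, −4.62, −5.49 and −4.69 with 300 nmol/min on its brightest probe. Only vehicle replicate 1 and 300 nmol/min replicate 4 were detected. The ACAT2 difference at 300 nmol/min was −1.999 ± 0.55 (SE, adjusted p = 0.228 in limma). At 30 nmol/min ACAT2 was at least 2.77-fold lower (adjusted p = 0.206 in limma), a bound that rests on vehicle replicate 1 and cannot be given without it, and that was 1.33- and 1.11-fold under the scales over all probes. The ACAT2 difference at 300 nmol/min was −0.99 without vehicle replicate 1 and −3.01 without vehicle replicate 2, and it was −0.83 and −0.57 with the 75th percentile and the median of all probes as the scale and −0.34 with normexp. The second ACAT2 probe, farther downstream, was detected on 4 arrays, 0 of them vehicle. It was also lower in the fit at both doses (adjusted p = 0.366 at 300 nmol/min in limma), but on it the arrays of both doses overlapped with vehicle. Its mean over all arrays was −4.71, against −4.67 for the brightest probe, whose mean includes vehicle replicate 1 at −1.86. The choice between the 2 probes thus rests on a small margin.

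MVK, the kinase that starts the activation of mevalonate, came nearest to the threshold in the comparison of 300 nmol/min with vehicle. Its values were −3.22 and −2.73 in vehicle, −2.23, −2.04, −2.47 and −2.03 with 30 nmol/min and −2.15, −2.09, −1.61 and −1.82 with 300 nmol/min. All 8 senktide arrays lay above both vehicle arrays, of which only replicate 2 was detected. The mean was −1.92 ± 0.25 at 300 nmol/min (SD, n = 4) and −2.97 ± 0.35 in vehicle (n = 2), a difference of 1.06 ± 0.24 (SE, 2.08-fold, adjusted p = 0.175 in limma). At 30 nmol/min the mean was −2.19 ± 0.21 and the difference from vehicle 0.78 ± 0.24 (1.72-fold, adjusted p = 0.316 in limma). Both folds include the undetected value of vehicle replicate 1. Its processed signal was 8.53, below the lowest detected signal of that array, 13.5, so the size of the folds is uncertain. Within slide 2, where both groups were detected, MVK was higher by 0.64 at 300 nmol/min and by 0.69 at 30 nmol/min, while the vehicle array of slide 1 was not detected. Without vehicle replicate 1 the MVK difference at 300 nmol/min was 0.81, and with normexp it was 0.54. With quantile normalization the MVK difference at 300 nmol/min was 1.62 and its adjusted p 0.0722, still above the threshold.

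FDPS joins isoprenoid units into farnesyl diphosphate, the branch point towards sterols. It had values of −3.34 and −3.52 in vehicle, −2.41, −3.31, −2.66 and −2.79 with 30 nmol/min and −2.63, −2.51, −2.70 and −2.91 with 300 nmol/min. The probe was detected on 0 vehicle arrays, on 3 with 30 nmol/min and on all 4 with 300 nmol/min. Against vehicle at background, the bound for FDPS was at least 1.19-fold higher at 300 nmol/min (adjusted p = 0.278 in limma). At 30 nmol/min it was at least 1.1-fold higher (adjusted p = 0.416 in limma). Without vehicle replicate 2 no bound was found at either dose. FDPS passed the filter only through senktide arrays, so these bounds are no support for a difference. Within slide 1 the 300 nmol/min array gave no bound and the 30 nmol/min array at least 1.11-fold, and within slide 2 the 300 nmol/min array gave at least 1.74-fold and the 30 nmol/min array none. A second FDPS probe, which spans a gap in the genome, read a processed signal of 217 on vehicle replicate 1 alone, against 2.6 to 5.82 on the other 9 arrays, and was not tested.

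SQLE oxidises squalene, a rate-limiting step of the sterol branch. Its values were −4.54 and −2.83 in vehicle, −2.65, −3.18, −2.69 and −3.23 with 30 nmol/min and −2.62, −2.41, −2.51 and −2.73 with 300 nmol/min. It was detected on 0 vehicle arrays, on 3 at the low dose and on all 4 at the high dose, and the 2 vehicle arrays differed from each other by more than the 8 senktide arrays did. The bound for SQLE was at least 1.09-fold higher at 300 nmol/min than in vehicle (adjusted p = 0.293 in limma). No bound above 1 was found at 30 nmol/min on the scale used here (adjusted p = 0.491 in limma). With the 75th percentile and the median of all probes as the scale it was 1.76- and 2.11-fold. SQLE passed the filter only through senktide arrays, so its bounds are no support for a difference. Within slide 2 the bound at 300 nmol/min was 1.35-fold, and within slide 1 there was none. Without vehicle replicate 2 no bound above 1 was found for SQLE.

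MSMO1 removes methyl groups from the early sterols. Its values were −3.21 and −1.37 in vehicle, −1.78, −1.64, −1.60 and −1.27 with 30 nmol/min and −1.58, −1.36, −1.03 and −0.89 with 300 nmol/min. The 2 vehicle arrays lay far apart, and replicate 2 lay inside the range of both doses. The fitted difference was 1.07 ± 0.44 at 300 nmol/min (SE, adjusted p = 0.328 in limma) and 0.72 ± 0.44 at 30 nmol/min (adjusted p = 0.517). It was 0.15 at 300 nmol/min without vehicle replicate 1 and 1.99 without vehicle replicate 2, and within slide 2 it was 0.0096 at 300 nmol/min and −0.27 at 30 nmol/min. A second MSMO1 probe, 659 bases upstream, was lower in the fit at both doses (adjusted p = 0.347 at 300 nmol/min in limma), opposite to the first, and was detected on 0 vehicle arrays.

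The remaining enzymes were near background in part or showed small differences. EBP, a sterol isomerase, had values of −3.96 and −3.48 in vehicle, −3.06, −2.40, −3.46 and −2.92 with 30 nmol/min and −3.60, −2.62, −3.33 and −3.23 with 300 nmol/min. It was detected on 0, 4 and 3 arrays of these groups, and the signal gave no bound above 1 on the scale used here. With the 75th percentile and the median of all probes as the scale, the EBP bounds were 1.87- and 2.23-fold at 300 nmol/min. At 30 nmol/min they were 2.04- and 2.45-fold. EBP passed the filter only through senktide arrays, so these bounds are no support for a difference. FDFT1 (squalene synthase), with group means of −3.79, −4.48 and −4.02 from vehicle to the high dose, and NSDHL (a sterol dehydrogenase), with −3.78, −4.62 and −4.54, were detected on 0 vehicle arrays and on 4 and 2 senktide arrays in all. DHCR7, the last step to cholesterol in this route, averaged −2.53, −2.42 ± 0.21 and −2.27 ± 0.43 (SD) from vehicle to the high dose, and differed from vehicle by 0.26 ± 0.28 at 300 nmol/min and 0.12 ± 0.28 at 30 nmol/min (SE, adjusted p = 0.672 and 0.883 in limma). SC5D, the desaturase before it, averaged −3.42 ± 1.07, −3.26 ± 0.29 and −3.31 ± 0.27 and differed by 0.11 ± 0.39 and 0.16 ± 0.39 (adjusted p = 0.912 and 0.883), with a sign that turned without vehicle replicate 1. GGPS1 averaged −2.19 ± 0.28, −2.17 ± 0.40 and −2.43 ± 0.27.

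NPC1, the lysosomal membrane protein that releases cholesterol taken up in lipoproteins, was measured on all arrays. Its values were −1.42 and −1.41 in vehicle, −1.18, −1.37, −1.14 and −0.93 with 30 nmol/min and −0.93, −1.25, −0.68 and −0.88 with 300 nmol/min. Every senktide array lay above both vehicle arrays, and the doses overlapped. The difference from vehicle was 0.48 ± 0.21 at 300 nmol/min (SE, 1.40-fold, adjusted p = 0.361 in limma) and 0.26 ± 0.21 at 30 nmol/min (1.20-fold, adjusted p = 0.611). Within slide 1 NPC1 was higher by 0.49 at 300 nmol/min and by 0.24 at 30 nmol/min, and within slide 2 by 0.17 and 0.046. A second NPC1 probe, 283 bases upstream, was higher in the fit at both doses (adjusted p = 0.464 at 300 nmol/min in limma), and was detected on 0 vehicle arrays. NPC2, the soluble partner of NPC1 in the lysosome, averaged −3.20 ± 0.02 in vehicle, −3.50 ± 0.75 at 30 nmol/min and −3.37 ± 0.26 at 300 nmol/min, and was detected on 0, 3 and 4 arrays.

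SOAT1, which stores cholesterol as esters in lipid droplets, had values of −1.32 and −1.05 in vehicle, −1.05, −2.02, −0.87 and −1.06 with 30 nmol/min and −0.93, −1.23, −1.01 and −0.92 with 300 nmol/min. Replicate 2 at 30 nmol/min lay below the rest, and the other arrays of the 3 groups overlapped. The difference from vehicle was 0.16 ± 0.31 at 300 nmol/min and −0.07 ± 0.31 at 30 nmol/min (SE, adjusted p = 0.834 and 0.939 in limma).

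Of the regulators, SREBF2 and SCAP were detected on all arrays. SREBF2, the gene of the sterol-responsive transcription factor, had 2 probes detected on all arrays. The upstream probe, the brighter one, had values of −0.28 and −0.64 in vehicle, −0.70, −0.41, −0.69 and −1.10 with 30 nmol/min and −0.85, −0.80, −0.99 and −1.04 with 300 nmol/min. All 4 arrays at the high dose lay below both vehicle arrays, and those at the low dose overlapped with them. The difference was −0.46 ± 0.23 at 300 nmol/min (SE, 0.729-fold, adjusted p = 0.389 in limma) and −0.26 ± 0.23 at 30 nmol/min (adjusted p = 0.638). Under the scale over all probes the SREBF2 difference at 300 nmol/min was 0.72, below the median over all probes of 1.06. The probe 895 bases downstream had values of −1.27 and −2.06 in vehicle, −1.50, −2.16, −1.69 and −1.41 with 30 nmol/min and −1.57, −1.57, −1.48 and −1.64 with 300 nmol/min, with a difference of 0.10 ± 0.28 at 300 nmol/min (SE, adjusted p = 0.886 in limma) and −0.03 ± 0.28 at 30 nmol/min (adjusted p = 0.973). Both of these lay within their SE of 0, and on this probe the groups overlapped at both doses.

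SCAP, the sterol sensor that escorts SREBP-2, had values of −2.28 and −1.34 in vehicle, −2.31, −1.995, −1.85 and −1.76 with 30 nmol/min and −2.09, −1.52, −1.97 and −1.62 with 300 nmol/min. The vehicle arrays spanned nearly the whole range of the doses, and the difference was 0.01 ± 0.30 at 300 nmol/min and −0.16 ± 0.30 at 30 nmol/min (SE, adjusted p = 0.99 and 0.85 in limma). INSIG1 and INSIG2, which hold the SCAP complex back and have 2 probes each, were not detected on any array. The processed signals of INSIG1 lay between 3.1 and 13.6 in vehicle, 3.67 and 12.1 with 30 nmol/min and 3.93 and 11.7 with 300 nmol/min, and those of INSIG2 between 2.7 and 6.26, 2.85 and 9.97, and 2.25 and 8.51. The lowest detected signal on an array lay between 9.47 and 14.9, and no INSIG signal was flagged as well above background.

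**Figure D4:**
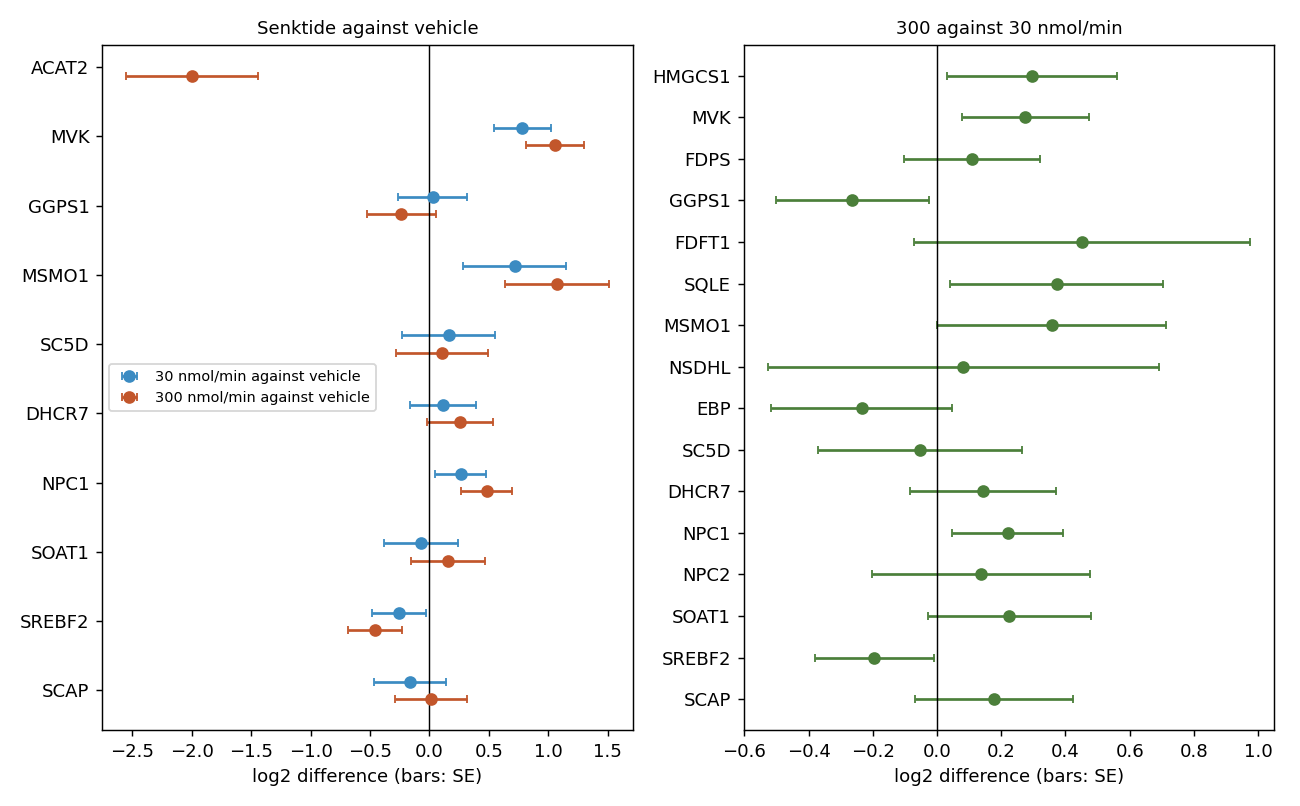
Log2 differences with their SE (bars) for 30 nmol/min (blue) and 300 nmol/min (orange) against vehicle (left) and for 300 against 30 nmol/min (right), for genes detected on at least 1 array of each group compared. MVK and MSMO1 lie near 1 at 300 nmol/min against vehicle and ACAT2 at −1.999, while the largest difference shown between the doses is 0.45, for FDFT1.

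Between the doses, 300 nmol/min against 30 nmol/min, 0 of the 17 genes were called (0% of all probes), and every adjusted p in limma was 0.999. At an unadjusted p under 0.05, 0 genes were higher (1.69% of all probes) and 0 lower (1.31%), and in 0 genes did the arrays of one dose lie all above (1.56%) or all below (1.14%) those of the other. Of the 17 differences 13 were positive, with a median of 0.18, against −0.01 and 48.3% positive over all probes. Positive differences numbered 12 of 17 within slide 1, 10 within slide 2 and 12 within slide 3, with medians of 0.12, 0.12 and 0.13, against −0.02, −0.06 and 0.03 over all probes. The genes with the smallest unadjusted p were MVK, whose difference was 0.27 ± 0.20, NPC1 with 0.22 ± 0.17, SQLE with 0.37 ± 0.33 and HMGCS1 with 0.30 ± 0.26 (SE). For each of these 4 genes the arrays of the doses overlapped. MVK differed by 0.086, −0.053 and 0.53 within slides 1, 2 and 3, and NPC1 by 0.24, 0.12 and 0.26. MSMO1 differed by 0.36 ± 0.36, with 0.20, 0.28 and 0.47 within the slides, and GGPS1 by −0.26 ± 0.24.

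**Figure D5:**
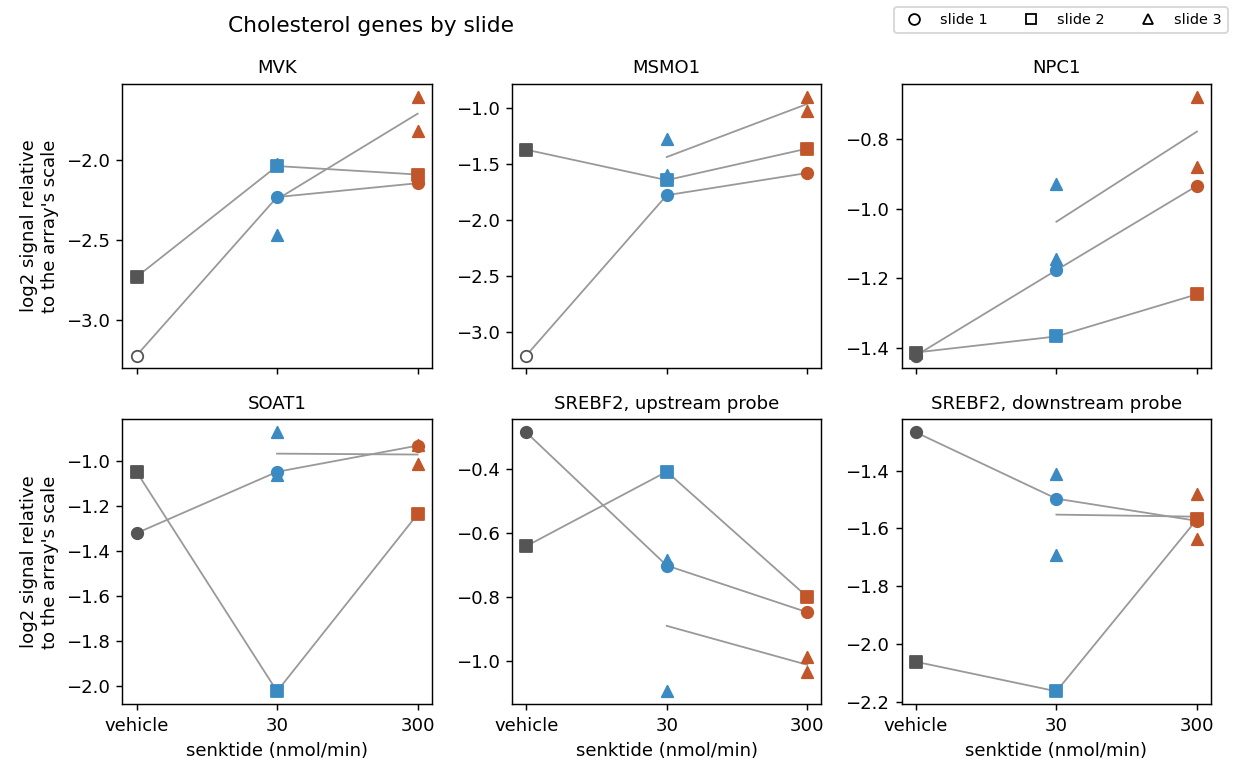
Log2 processed signal relative to the array's scale by group for MVK, MSMO1, NPC1, SOAT1 and the 2 probes of SREBF2; each point is 1 array, its symbol gives the slide, open points were not detected and lines join the means of 1 slide. NPC1 goes up with dose on slides 1 and 2, MSMO1 has 1 vehicle array at −3.21 and 1 at −1.37, and the 4 arrays at 300 nmol/min lie below both vehicle arrays on the upstream SREBF2 probe but not on the downstream one.

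With vehicle and each dose compared within a slide, the median over the 17 genes at 300 nmol/min was 0.39 on slide 1 and 0.17 on slide 2, against −0.22 and 0.01 over all probes. At 30 nmol/min the medians were 0.27 and 0.23, against −0.16 and 0.12. Each of these values rests on 1 array against 1 array and includes genes that were not detected there. Markers of other cell types differed between the arrays as well: the summed signal of the 18 markers relative to the array's scale was 1.71 and 1.19 in vehicle, 0.607 to 1.43 at 30 nmol/min and 0.662 to 1.05 at 300 nmol/min, and 1 and 1, 2 to 5 and 2 to 7 of them were detected. Their part in the values of the cholesterol genes was not tested.

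Other genes of the pathway were taken from a list of 48, of which 43 were on the array and 21 could be tested. In each comparison 0 of the 21 passed the threshold. At 300 nmol/min against vehicle 8 were higher and 13 lower, with a median of −0.14, and at 30 nmol/min 7 were higher and 14 lower, with a median of −0.10, close to −0.11 over all probes. At an unadjusted p under 0.05 at 300 nmol/min, 2 were higher (5.89% of all probes) and 3 lower (7.95%). ACLY, which makes the cytosolic acetyl-CoA that enters the pathway, was detected on all arrays and differed by 0.76 ± 0.22 (SE, adjusted p = 0.241 in limma) at 300 nmol/min and 0.55 ± 0.22 at 30 nmol/min (adjusted p = 0.418). TMEM97, an endoplasmic reticulum protein that binds sterols, was detected on 7 arrays and on 0 in vehicle (adjusted p = 0.241 at 300 nmol/min in limma). It passed the filter only through senktide arrays, so its place among the higher genes is no support for a difference. NR1H2, a nuclear receptor for oxysterols, differed by −0.48 ± 0.19 (adjusted p = 0.323) and was measured on all arrays. FAF2, which helps to extract proteins from the endoplasmic reticulum, and PDSS1, which builds the tail of ubiquinone, were lower in the fit but were detected on 0 vehicle arrays. SREBF1, the gene of a related transcription factor of lipid synthesis, was detected on 0 arrays.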

How the data were processed

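Each embryo sample was hybridised to 1 one-colour Agilent bovine array, per the labels. The deposited scanner files hold an intensity per spot, which the authors obtained with Agilent Feature Extraction, background-subtracted and not scaled between arrays. The file headers give version 11.5.1.1 of that software, and the submitters' processing notes give 10.5.1.1. Positions follow the HGSC Btau_3.1 build named in the file headers. The deposited series matrix holds log2 values whose scale and centring the labels do not state. On each array 99.96% of them lay within 0.01 of log2 processed signal less the 75th percentile of the whole array and less the median of the probe, so their direction is known. Their column medians lay between −0.31 and 0.22. These values were used as an alternative.

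Here outlier spots were left out, spots of a probe were averaged (detected if a share of at least 0.5 of its spots was flagged as well above background), and log2 processed intensity was taken less the 75th percentile of the 2491 probes detected by all 10 arrays. The 8935 probes detected by 2 or more were fitted in limma 3.58.1 (R 4.3.3) with lmFit and eBayes, 1 coefficient per group, with Benjamini-Hochberg adjustment and a threshold of 0.05. The procedure was tested on simulated data. Where a group lay at background on every array, a bound was taken against it. On each of its arrays the larger of the probe's signal and the array's lowest signal well above background was used. The other group entered with its mean, undetected arrays included. The lowest signal is not a strict limit: SQLE on vehicle replicate 2 read 17.3 undetected, where the lowest detected signal was 12.5. A gene was read from its tested probe with the highest mean. Every measured gene is named; values per array are given for the 6 with the smallest p against vehicle, the 4 between doses, SREBF2, SCAP, INSIG1, INSIG2 and those detected on all arrays. The members, lists and tests were chosen with earlier results of these data known. Same-numbered samples of the doses deviated together (r = 0.487 to 0.574 over probes, where deviations are from group means). Differently numbered samples of the doses did so too, on slide 3 (0.544 and 0.492) and between slides 1 and 2 (0.417 and 0.413). For vehicle and same-numbered dose samples r lay between −0.197 and 0.179. A pairing by number therefore cannot be told apart from the slide. With the replicate block 0 cholesterol genes were called, as without it. The number of arrays, above all 2 vehicle arrays, limits the precision. Alternatives were another scale, quantile normalization, normexp background correction with an offset of 50, the series matrix, stricter and no filters, a floor, slide and replicate blocks, and each array left out. Promoter motifs were not analysed here.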

Additional observations from a re-analysis of the deposited data

Results flagged for a closer look

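In 34 groups of 4 arrays examined (17 genes, each at 2 doses), 3 held an array far from the other 3 by Dixon's criterion, where chance gives about 1 in 20. DHCR7 on replicate 3 at 300 nmol/min read −2.91 and the nearest other array −2.13. SOAT1 on replicate 2 at 30 nmol/min read −2.02 and the nearest −1.06. ACAT2 on replicate 3 at 300 nmol/min read −5.49 and the nearest −4.69, at a signal that was not well above background. Vehicle, with 2 arrays, could not be examined in this way.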

How the results depend on the processing

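The count of cholesterol genes past the threshold was 0 in every comparison under every alternative run except those without vehicle replicate 2. Leaving out 1 array at a time, it was 0 to 2 at 300 nmol/min against vehicle, 0 to 1 at 30 nmol/min and 0 to 3 for both doses together (MSMO1, SQLE and ACAT2), each highest without vehicle replicate 2, and 0 between doses. The fit with the replicate block gave 0 and smallest adjusted p-values of 0.296 (300 nmol/min) and 0.356 (30 nmol/min) in limma. Differences of single genes were followed where the gene was detected on at least 1 array of each group compared. This leaves out EBP, FDFT1, FDPS, HMGCS1, NPC2, NSDHL and SQLE against vehicle at both doses. It also leaves out ACAT2 at 30 nmol/min against vehicle and between doses. Of the rest, 676 kept their sign and side of the threshold and 56 turned sign without being called. The remaining difference was that of MSMO1 at 300 nmol/min without vehicle replicate 2, where vehicle is 1 array. The whole array had 145 and 107 probes called at 300 and 30 nmol/min under quantile normalization, 107 and 36 under normexp, 3 and 3 with the stricter filter, and 0 with all-probe scales, against 1 and 0.

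Signs turned as follows, and the cause was not tested except that a scale over all probes moves all probes together, to medians of 1.06 and 0.95 at 300 and 30 nmol/min (75th percentile), 1.32 and 1.21 (median), 0.37 and 0.32 (quantile) and −0.60 and −0.54 (floor). Cholesterol gene medians were 1.33 and 1.17, 1.58 and 1.44, 0.54 and 0.42, and −0.24 and −0.16. At 300 nmol/min against vehicle, GGPS1 was 0.94, 1.19, 0.018 and 0.93 and SREBF2 0.72 and 0.97, and 0.72 (75th percentile, median, quantile for GGPS1 only, series matrix); SC5D was −0.70 with the floor, and SCAP was −0.078 and SOAT1 −0.014 with the slide or replicate block. At 30 nmol/min, SCAP was 0.89, 1.16, 0.021 and 0.89, SOAT1 0.99, 1.25 and 0.99, and SREBF2 0.80, 1.06 and 0.80 under the same settings, and SC5D −0.013 with normexp and −0.63 with the floor. Between doses, SC5D was 0.062, 0.051, 0.031, 0.091 (normexp) and 0.061, FDFT1 −0.031, HMGCS1 −0.063 and NSDHL −0.081 with the floor, and NPC2 −0.0018 with normexp and −0.22 on slides 1 and 2 only.

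Leaving out 1 array at a time, values ranged at 300 nmol/min against vehicle between −0.65 and 0.86 for SC5D and −0.46 and 0.48 for SCAP. At 30 nmol/min they ranged between −0.17 and 0.22 (GGPS1), −0.20 and 1.63 (MSMO1), −0.60 and 0.92 (SC5D), −0.63 and 0.31 (SCAP) and −0.20 and 0.19 (SOAT1). Between doses they ranged between −0.065 and 0.24 (FDPS), −0.049 and 0.51 (NPC2), −0.28 and 0.54 (NSDHL), −0.15 and 0.060 (SC5D) and −0.033 and 0.35 (SOAT1). The bounds for FDPS were 2.67- and 3.18-fold at 300 nmol/min under the 2 all-probe scales and 1.54-fold without vehicle replicate 1, with none without replicate 2, and those for SQLE 2.47- and 2.94-fold, with none without vehicle replicate 2. For ACAT2 at 30 nmol/min (2.77-fold lower) the bound was 1.33- and 1.11-fold under these scales, 1.37-fold on slides 1 and 2 only and 5.57-fold without vehicle replicate 2. Signal over background limits all statements on the 10 unmeasured genes and on vehicle, where 5 and 9 of 17 genes were detected.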
